A study of Rattus norvegicus with 8 samples.

Results

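Regulators of G protein signalling (RGS proteins) were followed in rat aortic smooth muscle cells with and without angiotensin II, through the RNA level of 9 genes and the histone marks at their loci. The genes were Rgs1, Rgs2, Rgs3, Rgs4, Rgs5, Rgs10, Rgs12, Rgs16 and Rgs19, each represented by its most abundant locus among those whose transcript identifiers lead to that gene symbol and no other. They are 9 of 14761 gene symbols with such a locus, in a table of 30937 loci. All were measured in primary vascular smooth muscle cells grown from thoracic aortas of the Sprague-Dawley rat in serum-containing medium. The control cells were untreated, and the other cells received 0.1 uM angiotensin II (AngII) for 3 h. AngII is the peptide hormone that constricts arteries and raises blood pressure. The labels state that the AngII-treated cells had been kept overnight without serum and state nothing of this for the control cells, so serum withdrawal and AngII cannot be told apart. The series holds 8 samples, and 6 libraries were analysed: RNA sequencing and chromatin immunoprecipitation of H3K4me3 and of H3K36me3, with 1 library per condition and assay. The 2 input libraries were not analysed here. There are therefore no replicates and no tests, and the labels do not say whether the cultures came from separate animals.

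A G protein-coupled receptor loads the alpha subunit of its G protein with GTP, and signalling lasts until that GTP is hydrolysed. RGS proteins bind the active alpha subunit and speed up the hydrolysis, which shortens the signal. The type 1 angiotensin receptor works largely through the Gq class, and Rgs2, which prefers Gq, is known as a brake on vasoconstrictor signalling in vascular smooth muscle. H3K4me3 marks promoters, and H3K36me3 marks the bodies of transcribed genes.

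The main result was a change in which RGS genes made up the family's RNA. Rgs2 and Rgs16 were higher in the AngII-treated cells and Rgs4 was lower. The other expressed members, Rgs3, Rgs10, Rgs12 and Rgs19, differed by less than 2-fold, and Rgs1 and Rgs5 were below the level called expressed. RNA levels are in FPKM, fragment counts scaled by transcript length and library size, which allows genes to be compared within a library. Each FPKM carries the bounds deposited with it, which lie 2 model SDs either side and hold no variation between cultures. A gene was called expressed at 1 FPKM or more in at least 1 library. It was called higher or lower when AngII FPKM + 1 and control FPKM + 1 differed by 2-fold or more, and log2 ratios are on that scale with the SE that the bounds imply.

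**Figure D1:**
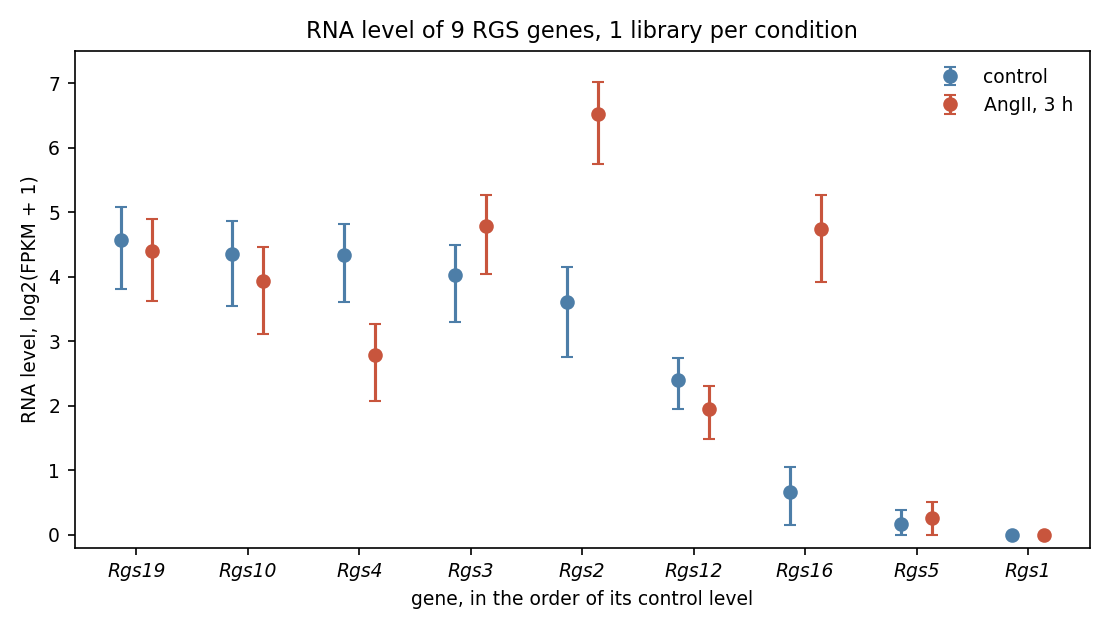
RNA level of the 9 RGS genes, as log2(FPKM + 1), in control cells (blue) and after 3 h of AngII (red), ordered by control level. Points are single libraries and bars are the deposited bounds. The bounds of the 2 libraries are apart for Rgs2, Rgs4 and Rgs16 and overlap for the other 6 genes.

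Rgs2 and Rgs16 belong to the R4 subfamily, small proteins that consist of little more than the RGS domain. The control library gave Rgs2 a level of 11.2 FPKM (bounds 5.72 to 16.8), and the AngII library gave 90.6 FPKM (bounds 52.9 to 128). The FPKM ratio was 8.06, and the log2 ratio was 2.90 ± 0.44 (model SE). Rgs2 was the fifth of the 9 genes in control cells and the first after AngII by level, when its bounds lay above those of Rgs3, the next in order.

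Rgs16, which acts on Gi and Gq alpha subunits, had 0.589 FPKM (bounds 0.110 to 1.07) without AngII and 25.7 FPKM (bounds 14.2 to 37.3) with it. The log2 ratio was 4.07 ± 0.38 (model SE). The plain FPKM ratio of 43.7 rests on a control level with bounds of 0.110 to 1.07 FPKM, so its size is poorly fixed. Rgs16 was under the 1 FPKM minimum in control cells, and after AngII its level lay beside those of Rgs3 and Rgs19 with overlapping bounds.

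Rgs4, another R4 member that acts on Gi and Gq alpha subunits, went the other way. Its level was 19.2 FPKM (bounds 11.1 to 27.2) in untreated cells and 5.92 FPKM (bounds 3.21 to 8.62) in treated cells. The control level was 3.24 times the AngII level, and the log2 ratio was -1.55 ± 0.40 (model SE). Rgs4 was the third of the 9 genes in control cells and the sixth after AngII.

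These 3 genes lie on rat chromosome 13, as do Rgs1 and Rgs5. To show the promoters of the genes that differed most, with that of Rgs5, the neighbour of Rgs4 listed near 0 FPKM, the sequences from 250 bases before the transcription start to 50 bases from it on are given here from RefSeq, build GRCr8. The windows are chr13:58352617-58352916 on the minus strand for Rgs2, chr13:68437870-68438169 on the plus strand for Rgs16, chr13:84475835-84476134 on the minus strand for Rgs4 and chr13:84380827-84381126 on the plus strand for Rgs5. Each reads 5′ to 3′ along the gene, and capitals mark matches to the motifs searched.
Rgs2: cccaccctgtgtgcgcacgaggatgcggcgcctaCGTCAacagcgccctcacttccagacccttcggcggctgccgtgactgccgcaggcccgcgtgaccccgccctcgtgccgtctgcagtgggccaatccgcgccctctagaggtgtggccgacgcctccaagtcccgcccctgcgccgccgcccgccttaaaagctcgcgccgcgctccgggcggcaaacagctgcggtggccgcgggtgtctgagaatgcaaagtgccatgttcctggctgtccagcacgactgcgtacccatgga
Rgs16: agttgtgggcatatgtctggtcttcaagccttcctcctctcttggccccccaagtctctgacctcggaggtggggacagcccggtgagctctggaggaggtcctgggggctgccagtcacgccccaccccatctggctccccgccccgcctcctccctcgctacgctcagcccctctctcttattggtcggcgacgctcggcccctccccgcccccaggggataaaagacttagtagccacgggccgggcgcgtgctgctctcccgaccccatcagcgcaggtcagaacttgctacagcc
Rgs4: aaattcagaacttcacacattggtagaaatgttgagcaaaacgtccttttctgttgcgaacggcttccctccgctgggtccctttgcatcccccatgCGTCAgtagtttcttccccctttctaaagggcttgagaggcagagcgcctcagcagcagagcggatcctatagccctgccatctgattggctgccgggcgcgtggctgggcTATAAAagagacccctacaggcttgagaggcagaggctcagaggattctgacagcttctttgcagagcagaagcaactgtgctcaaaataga
Rgs5: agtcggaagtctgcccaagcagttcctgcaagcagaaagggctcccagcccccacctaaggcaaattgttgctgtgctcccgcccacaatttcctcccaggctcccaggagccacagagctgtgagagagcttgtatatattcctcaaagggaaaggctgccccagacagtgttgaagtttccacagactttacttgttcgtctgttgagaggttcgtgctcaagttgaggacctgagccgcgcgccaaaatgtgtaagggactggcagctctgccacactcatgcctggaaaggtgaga

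Motifs for 6 factors or boxes were searched on both strands in the promoters of all 9 genes. The short cAMP response motif TGACG, which also lies within the full element TGACGTCA, was found in 4 of the 9 (Rgs1, Rgs2, Rgs3 and Rgs4) and in 21.2% of 33469 RefSeq promoters. In Rgs2 it reads CGTCA, the minus-strand form, from 216 to 212 bases before the start, and in Rgs4 it has the same form from 153 to 149 bases before. TATAAA was found in 3 of the 9 (Rgs1, Rgs3 and Rgs4) and in 14.2% of all promoters, and in Rgs4 it begins 42 bases before the start. The AP-1 motif TGANTCA was found in Rgs12 alone and in 7.33% of all promoters. The full cAMP response element (1.83% of all promoters), the CArG box (1.64%) and the EGR core GCGGGGGCG (2.73%) had no match in these 9 windows. Rgs16 and Rgs5 thus carry no capitals. These matches describe letters only, and the data hold no binding measurement for any of these factors.

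The promoters also differed in base composition. That of Rgs2 is a CpG-rich promoter with 35 CpG dinucleotides and 69.7% G and C, against a median of 7 CpG and 51.7% over all promoters. Rgs16 has 18 CpG, Rgs4 has 10 and Rgs5 has 7. Among the other members, Rgs10 has 34, Rgs19 has 19, Rgs12 has 16, Rgs3 has 6 and Rgs1 has 4. The higher genes Rgs2 and Rgs16 and the lower gene Rgs4 are thus not set apart from the other members by CpG number, since Rgs10 lies next to Rgs2 and Rgs12 lies between Rgs16 and Rgs4.

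Among the other R4 members, Rgs3 was expressed and Rgs5 and Rgs1 were listed under 1 FPKM. Rgs3, whose longer forms carry additional domains before the RGS domain, measured 15.2 FPKM (bounds 8.89 to 21.5) in the control library and 26.5 FPKM (bounds 15.5 to 37.4) in the AngII library. Its log2 ratio of 0.76 ± 0.40 (model SE) did not reach 2-fold and the bounds overlap. The AngII levels were also scaled by 1.214, which centred the libraries on the median of all expressed loci, with or without a symbol. The log2 ratio of Rgs3 then became 1.03, past 2-fold.

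Rgs5, known as a marker of pericytes and of arterial smooth muscle in the vessel wall, was listed at 0.129 FPKM (bounds 0 to 0.313) in the control library and 0.197 FPKM (bounds 0 to 0.425) in the AngII library. These bounds correspond to 2 and 3 fragments, a ratio of 1.5 with an exact 95% interval of 0.172 to 18.0 that covers counting error only. A difference in Rgs5 was not detectable at this depth. Rgs1, best known from lymphocytes, was listed at 0 FPKM in both libraries. Whether that 0 is a failed estimate was not tested. The single-symbol locus of Gnas, the stimulatory alpha subunit that nearly all cells use, was also listed at 0 in control and at 0.0322 FPKM after AngII. That locus is short (chr3:165213399-165214553), so its level may not stand for the whole gene and does not settle the question for Rgs1.

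The members outside the R4 subfamily were all expressed and within 2-fold. Rgs19, also called GAIP, acts on Gi-class subunits. It was the most abundant member in control cells at 22.8 FPKM (bounds 13.0 to 32.7), and the AngII library gave 20.1 FPKM (bounds 11.4 to 28.7). The log2 ratio was -0.18 ± 0.42 (model SE). The sign of that ratio turned to 0.09 when the libraries were centred. Rgs10, a small RGS protein that acts on Gi-class subunits, measured 19.3 FPKM (bounds 10.7 to 28.0) without AngII and 14.3 FPKM (bounds 7.68 to 21.0) with it. Its log2 ratio was -0.41 ± 0.44 (model SE). Rgs12, a large scaffold with PDZ and GoLoco domains besides the RGS domain, was the least abundant of these, with 4.25 FPKM (bounds 2.85 to 5.66) in untreated cells and 2.86 FPKM (bounds 1.79 to 3.93) in treated cells. Its log2 ratio was -0.44 ± 0.28 (model SE). The bounds of the 2 libraries overlap for each of these 3 genes.

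The order of the members was loosely fixed within a library. In control cells the levels ran from Rgs19 through Rgs10, Rgs4, Rgs3 and Rgs2 to Rgs12, Rgs16, Rgs5 and Rgs1. Neighbours with bounds apart were only Rgs2 over Rgs12 and Rgs12 over Rgs16. No neighbours within the first 5 genes could therefore be ranked against each other. After AngII the order was Rgs2, Rgs3, Rgs16, Rgs19, Rgs10, Rgs4, Rgs12, Rgs5 and Rgs1, and only Rgs2 over Rgs3 and Rgs12 over Rgs5 had bounds apart.

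Summed over the 9 genes, RNA came to 92.8 FPKM without AngII and 186.1 FPKM with it. Rgs2 made up 12.1% of the sum in control and 48.7% after AngII. Rgs16 made up 0.634% and 13.8%. The share of Rgs4 was 20.7% in control and 3.18% after AngII, that of Rgs19 was 24.6% and 10.8%, and that of Rgs10 was 20.8% and 7.69%. The share of Rgs3 was 16.4% and 14.2%. These shares carry no bounds, and a share can fall because the sum is larger, as the levels of Rgs19 and Rgs10 were within 2-fold. RGS genes outside the 9, such as Rgs17, are not in the sum. In control cells the 5 most abundant members each held between 12.1% and 24.6%, whereas Rgs2 alone held 48.7% after AngII. In bulk libraries fewer cells that express a gene and less RNA per cell cannot be told apart.

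**Figure D2:**
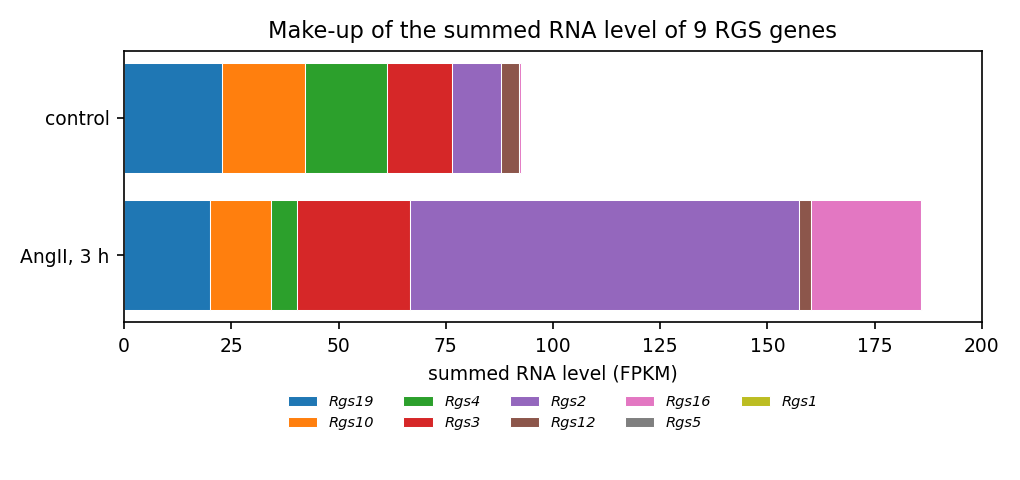
Summed RNA level (FPKM) of the 9 RGS genes in control cells and after 3 h of AngII, split by gene. The bar is 92.8 FPKM long in control and 186.1 FPKM long after AngII, and the Rgs2 segment takes 12.1% of the first and 48.7% of the second.

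Against all genes, 2 of the 7 expressed members were 2-fold higher, a call that 3.89% of 8349 expressed genes received. Rgs16, 1 of these 2, counts as expressed through the AngII library only, the library in which it is high. The members called lower numbered 1 of 7, against 2.96% of expressed genes. With bounds apart the members' counts stayed at 2 higher and 1 lower, and the shares of all expressed genes were 2.71% higher and 1.58% lower. The median log2 ratio was -0.18 over the 7 expressed members and -0.22 over all expressed genes (interquartile range -0.46 to 0.08), and 4 of the 7 lay above the latter. Because the median gene was at -0.22, the log2 ratios of the members relative to it are higher than those printed. Centring instead on the median of all expressed loci, with or without a symbol, gave 5.85% of genes higher and 1.18% lower. That centring added Rgs3 to the higher members. A pseudocount of 0.1 gave 4.70% higher and 6.95% lower, and one of 5 gave 2.37% higher and 0.599% lower, with the members' calls at 2 and 1 in both.

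Genes with the nearest levels in both libraries were sought by the distance in log2(FPKM + 1) over the 2 RNA libraries. For Rgs2 these were Fjx1, at 13.7 FPKM without and 80.1 FPKM with AngII (distance 0.320), the hyaluronan receptor Cd44 at 11.8 and 71.4 FPKM (distance 0.345) and Ubtd1 at 13.8 and 71.6 FPKM (distance 0.432). For Rgs16 they were the MAP kinase phosphatase Dusp5 at 0.438 and 27.9 FPKM (distance 0.182), the transcription factor Egr2 at 0.632 and 21.8 FPKM (distance 0.235) and the oxidised LDL receptor Olr1 at 0.902 and 25.1 FPKM (distance 0.262). For Rgs4 they were Cbr4 at 17.9 and 6.36 FPKM (distance 0.134), C1qtnf7 at 17.1 and 5.70 FPKM (distance 0.169) and Cln6 at 16.8 and 6.05 FPKM (distance 0.184). With 2 libraries the likeness concerns a pair of levels per gene.

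H3K4me3 and H3K36me3 were read from the deposited region lists, in coordinates of rat assembly rn4. A gene was taken to have H3K4me3 where a listed region lay within 1 kb of its interval in the RNA table, and H3K36me3 where a region touched the interval. Of the 9 members, 6 (Rgs1, Rgs3, Rgs4, Rgs5, Rgs12 and Rgs19) have an interval of their own, and for these the marks can be assigned. The intervals of Rgs2, Rgs10 and Rgs16 are shared with other loci. Of the 6 with their own interval 4 are expressed, and all 4 had H3K4me3 in both libraries, as did 95.2% of 6448 expressed genes with their own interval in control and 95.2% after AngII. H3K36me3 was listed at 3 of those 4 in control and at 4 of 4 after AngII, against 94.6% and 96.9% of the same 6448 genes. The members under 1 FPKM, Rgs5 and Rgs1, had neither mark in either condition.

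**Figure D3:**
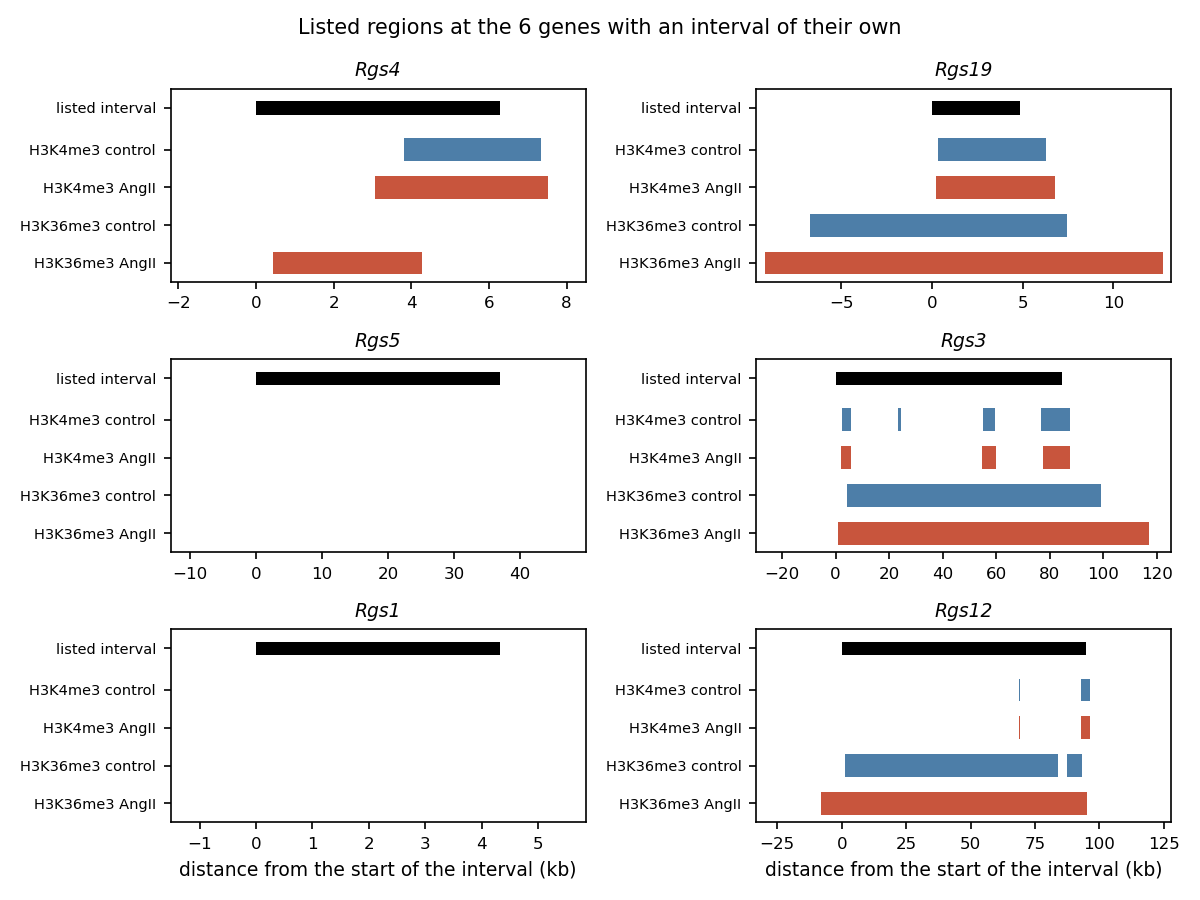
Regions listed for H3K4me3 and H3K36me3 in control (blue) and after AngII (red) at the 6 RGS genes with an interval of their own (black bar); the x axis is the distance from the start of the interval in kb. Rgs4 has an H3K36me3 region after AngII and none in control, and Rgs5 and Rgs1 have no region.

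Rgs4 was the one member at which H3K36me3 was listed in 1 condition and not in the other, with all listed regions used. Its interval is chr13:85533882-85540173, 6.29 kb long. The H3K4me3 region lay at the high-coordinate end of the interval. For a gene on the minus strand, as Rgs4 is in GRCr8, that is the side of the transcription start. This region ran from 85537697 to 85541215 (3519 bp) in control and from 85536936 to 85541415 (4480 bp) after AngII. No H3K36me3 region touched the interval in control, where the nearest lay 171.1 kb away. After AngII a region of 3836 bp, from 85534316 to 85538151, covered 61.0% of it. The authors' score of that region lay at percentile 38.2 of the AngII list, so the region is lost where only the upper 50% of scores are kept. The RNA of Rgs4 was 3.24 times as high in control, so the mark of transcribed gene bodies was listed in the library of the condition with the lower RNA level.

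A region listed after AngII and not in control was seen at 186 of the 6448 expressed genes with their own interval (2.88%), and at 36 in control and not after AngII. Among those 186 genes, 22 had RNA called higher with bounds apart and 5 had RNA called lower with bounds apart, out of 181 and 111 such genes. The 5 lower genes were Henmt1, Kcne4, Pomgnt2, Ptp4a3 and Rgs4. The AngII list for H3K36me3 covered more, with a mean cover of 90.1% of the interval over the 6448 genes against 86.3% in control, and the part of this in the Rgs4 result was not tested. It also reached genes under 0.5 FPKM in both libraries, of which 22.2% of 4577 had H3K36me3 after AngII and 17.3% in control.

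Rgs5 lies 51.6 kb before Rgs4 on chromosome 13, at chr13:85445325-85482294 (37.0 kb). The H3K4me3 region nearest to it, 55.4 kb away in control and 54.6 kb after AngII, is that of Rgs4. Its nearest H3K36me3 region lay 132.8 kb away in control, and after AngII it was the Rgs4 region, 52.0 kb away. Rgs4 and Rgs5 thus stood next to each other with opposite states. Rgs4 was expressed with H3K4me3 at the high-coordinate end of its interval, and Rgs5 was near 0 FPKM without marks. Rgs1, at chr13:58121188-58125514 (4.33 kb), had its nearest H3K4me3 region at 223.9 kb in control and 210.8 kb after AngII. Small H3K36me3 regions lay 27.9 and 28.0 kb from it. Among the 4577 genes under 0.5 FPKM in both libraries with their own interval, 36.5% had H3K4me3 in control and 36% after AngII, so the lack of it at Rgs1 and Rgs5 is the more frequent state.

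The other members with their own interval kept both marks in both conditions. Rgs3, at chr5:79624388-79709035 (84.7 kb), had 4 H3K4me3 regions in control and 3 after AngII. The control region without a counterpart, from 79647724 to 79648794, is 1071 bp wide. The regions in both lists lie near the start, in the middle and at the end of the interval, the last of them 10863 bp wide in control and 10080 bp after AngII. H3K36me3 covered 94.8% of Rgs3 in control and 99.0% after AngII. Rgs12, at chr14:81356991-81451754 (94.8 kb), had 2 H3K4me3 regions in each list and H3K36me3 over 93.2% and 100%. One of the H3K4me3 regions lay at the high-coordinate end of the interval (3519 bp in control, 3680 bp after AngII). Rgs12 is also on the minus strand in GRCr8, so that end is the side of its transcription start. Rgs19, at chr3:170839907-170844746 (4.84 kb), had 1 H3K4me3 region in each list, 5967 bp wide in control and 6560 bp after AngII. H3K36me3 covered all of Rgs19 in both.

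At the shared intervals the marks belong to the interval and not to 1 gene. The Rgs2 interval, chr13:57605912-57894452 (288.5 kb), also holds 1 locus without a symbol, listed at 5.82 FPKM without and 3.66 FPKM with AngII, the bounds overlapping. An H3K4me3 region lay at each end in both lists. The one at the far end ran from 57892129 to 57897330 in control (5202 bp) and from 57891347 to 57895986 after AngII (4640 bp). H3K36me3 regions also lay at both ends, and the cover of the whole interval was 16.1% in control and 15.7% after AngII. Whether the mark at Rgs2 itself followed its RNA cannot be read from this cover. At the far end the H3K36me3 region ran from 57888977 to 57897222 in control and from 57888871 to 57895446 after AngII.

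The Rgs16 interval, chr13:68578460-68875337 (296.9 kb), is shared with other loci, among them Rgs8 and Hnrnpa3. Rgs8, an R4 member known from brain, was near 0 in both libraries, at 0.188 and 0.251 FPKM (here and below, control first and AngII second). Hnrnpa3, an RNA-binding protein, stood at 42.7 and 52.8 FPKM. The bounds of the 2 libraries overlap for both of these neighbours and are apart for Rgs16. The interval had 4 H3K4me3 regions in control and 5 after AngII, and H3K36me3 over 14.3% in control and 22.2% after AngII. The interval of Rgs10, chr1:186164774-187778393 (1614 kb), holds 57 other loci, and its 67 H3K4me3 regions in control and 69 after AngII cannot be assigned to Rgs10.

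The rest of the pathway was read through lists of related genes. Of 14 other RGS-named genes, 10 had a locus and 3 were expressed. Rgs17, an RZ subfamily member that acts on Gi-class subunits, was called higher, with 6.24 FPKM (bounds 3.37 to 9.10) and 18.1 FPKM (bounds 10.4 to 25.7), which gives a log2 ratio of 1.40 ± 0.41 (model SE). Its interval is shared with 1 other locus. Rgs7bp, a membrane anchor of R7 proteins, stood at 2.46 and 3.44 FPKM, and Rgs11 at 1.41 and 0.749 FPKM, both within 2-fold. Of 13 proteins with an RGS-like domain, 11 of the 12 with a locus were expressed and none was called higher or lower. They include the guanine nucleotide exchange factor Arhgef12, at 32.0 and 30.0 FPKM, and the receptor kinase Grk6, at 21.5 and 39.6 FPKM. Grk6 had a log2 ratio of 0.85 with bounds apart, and centring took it past 2-fold.

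The expressed G protein subunits and Gq effectors were all within 2-fold, as were most expressed genes (3.89% were called higher and 2.96% lower), so these counts of 0 do not set the lists apart. None of 7 expressed alpha subunits was called in either direction, and their median log2 ratio was 0.08. Gnai2 stood at 302 and 270 FPKM and Gnai3 at 119 and 141 FPKM. None of 8 expressed beta and gamma subunits was called, with a median of -0.08, which centring turned to 0.25. Gnb2 stood at 159 and 156 FPKM and Gnb1 at 88.6 and 88.4 FPKM. None of 7 expressed Gq effectors was called, with a median of 0.04. The protein kinase Prkcd stood at 37.8 and 61.5 FPKM and the phospholipase Plcb3 at 31.1 and 32.1 FPKM.

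Of 13 expressed vascular receptors of the Gq and Gi classes, 3 were called higher and 3 lower, against 3.89% and 2.96% of all expressed genes, and the median log2 ratio was 0.12 against -0.22. The receptor for AngII itself, Agtr1a, was lower, at 99.2 and 30.1 FPKM (log2 ratio -1.69). The pyrimidine receptor P2ry6 was lower, at 12 and 2.20 FPKM (log2 ratio -2.02). The thromboxane receptor Tbxa2r was lower, at 30.3 and 9.26 FPKM (log2 ratio -1.61). The sphingosine 1-phosphate receptor S1pr1 was higher, at 9.90 and 55.7 FPKM (log2 ratio 2.38). The protease receptor F2rl1 was higher, at 0.131 and 1.47 FPKM, and counts as expressed through the AngII library only. The vasopressin receptor Avpr1a just passed 2-fold, at 4.72 and 10.6 FPKM with overlapping bounds. The bounds of the other 5 called receptors were apart. F2r, the thrombin receptor, stood at 87.2 and 122 FPKM, within 2-fold. Of the arrestins and other regulators, 1 of 5 expressed genes was called, Gpsm2, which binds Gi-class subunits, at 10.6 and 3.24 FPKM. Ric8a stood at 32.3 and 37.4 FPKM and Gpsm1 at 12 and 12.6 FPKM.

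**Figure D4:**
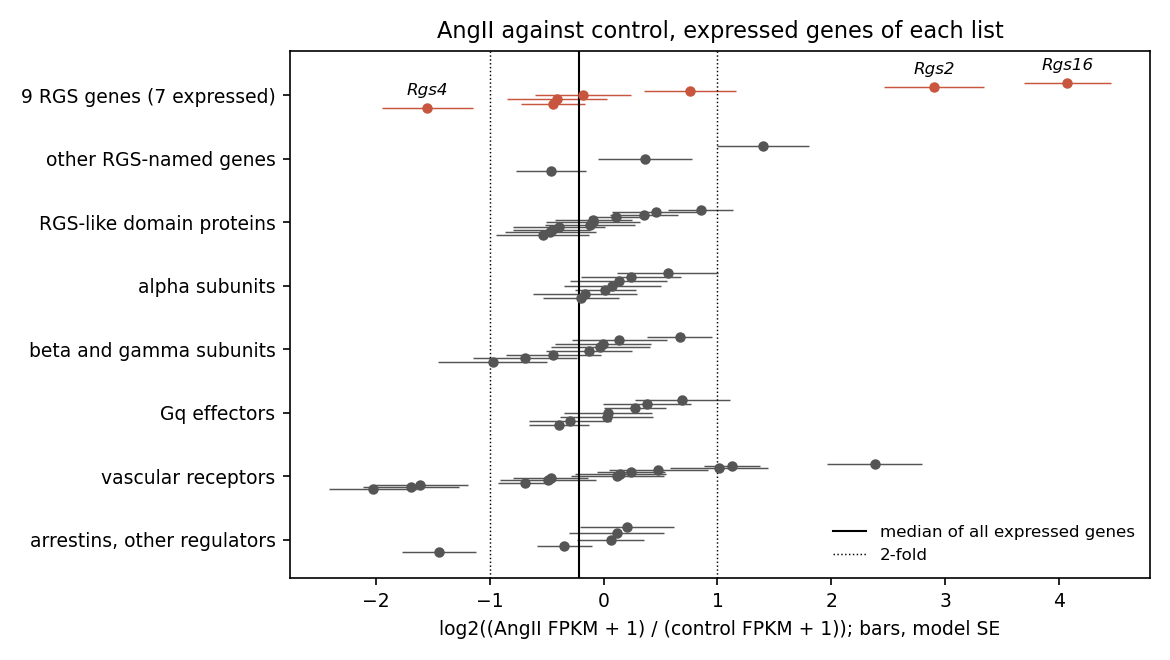
Log2((AngII FPKM + 1)/(control FPKM + 1)) of the expressed genes in each list, with the model SE as bars; the solid line is the median of all expressed genes (-0.22) and the dotted lines mark 2-fold. Rgs16, Rgs2 and Rgs4 lie past 2-fold, as do 6 vascular receptors, Rgs17 and Gpsm2, and no alpha, beta or gamma subunit does.

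Marker genes were compared for the cell types the cultures could hold. Of 10 smooth muscle markers 9 had a locus, summing to 6833 and 6863 FPKM, with Tagln at 5103 and 5244 FPKM and Cald1 at 1329 and 1130 FPKM. None of the 8 expressed was called, though centring took Myocd and Smtn past 2-fold. The 8 pericyte markers summed to 231.3 and 227.1 FPKM. Cspg4 was called higher among them, at 4.99 and 14.7 FPKM, while Pdgfrb stood at 179 and 143 FPKM and Mcam at 29.6 and 56.4 FPKM, past 2-fold under centring only. Of the other pericyte markers, Notch3 (10.8 and 9.03 FPKM), Anpep (4.32 and 2.65 FPKM) and Abcc9 (1.85 and 1.55 FPKM) were expressed and within 2-fold, and Kcnj8 (0.561 and 0.119 FPKM) and Higd1b (0.0471 and 0 FPKM) were under 1 FPKM in both libraries. The 7 fibroblast markers with a locus summed to 294.7 and 259.6 FPKM, and none of the 6 expressed was called. Most of that sum came from Lum at 140 and 111 FPKM and Gsn at 123 and 125 FPKM. Mfap5, the next in level, stood at 18.6 and 14.3 FPKM. Dcn was under 1 FPKM in both libraries, at 0.758 and 0.525 FPKM, and Pi16 in the AngII library, at 0.594 FPKM. Of 8 endothelial markers 6 had a locus and none of these was expressed. The highest were Tek at 0.367 and 0.124 FPKM and Pecam1 at 0.323 and 0.324 FPKM, with Emcn and Tie1 at 0. The Pecam1 locus is short (chr10:96056220-96057224), so its level may not stand for the whole gene. Of 7 leukocyte markers 1 was expressed, Cd14 at 5.47 and 6.77 FPKM, followed by Cd68 at 0.309 and 0.452 FPKM, and Ptprc, Itgam and Cd3e were at 0 in both libraries. The part of Cspg4-expressing cells in the results for Rgs2, Rgs16 and Rgs4 was not tested.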

How the data were processed

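RNA levels are FPKM that the authors deposited with bounds for each locus, in 1 table for both conditions. Per the submitters' processing notes the RNA reads went through TopHat, Cufflinks and Cuffdiff and the ChIP reads through Bowtie, on rn4 (versions not named), and per the labels ribosomal RNA was removed. The region lists carry a score that the authors deposited, used only to filter regions within a list; the region caller and sequencing depth are not given in the sources used here. At 10 FPKM or more the bounds imply a median relative SD of 21.0% in control and 21.1% after AngII. Symbols came from the RefSeq table of GRCr8, used for names; 15 loci without usable estimates were left out. Intervals were taken as counted from 0 in the RNA table, since 1983 symbols then match their RefSeq length, against 160 otherwise, and are printed counted from 1. A Cuffdiff interval can span several genes. Ratios, shares and overlaps were computed in Python 3.11.15 with pandas 2.3.3, numpy 2.4.6 and scipy 1.17.1, checked on simulated data. The members, lists and alternatives were chosen with earlier results of these data known. Named are all members, list genes past 2-fold with the 2 most abundant of each list, the 3 genes nearest to Rgs2, Rgs4 and Rgs16, and loci sharing the intervals of Rgs2 and Rgs16, of which 1 is not reported here (the 57 beside Rgs10 are only counted); any other gene was chosen after its values were seen. Alternatives varied the pseudocount, expression minimum, fold, scaling, mark window and region filter.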

Additional observations from a re-analysis of the deposited data

How the results depend on the processing

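The count of members called higher was 2 in the other settings run and 3, with Rgs3 added, when the libraries were median centred or the fold was 1.5; the count called lower was 1, Rgs4, in all settings run. The log2 ratio of Rgs2 ranged from 2.56 to 3.18 and that of Rgs4 from -1.68 to -1.15. That of Rgs16 was 5.23 with a pseudocount of 0.1 and 2.46 with 5. Counting only the 6 members with their own interval, chosen after seeing the data, gave 4 with H3K4me3 in control and 4 after AngII. Over all 9 members these counts were 7 and 7. For H3K36me3 they were 3 of the 6 in control and 4 of the 6 after AngII, against 6 and 7 of all 9. Rgs2, Rgs10 and Rgs16 were left out for their shared intervals, not for want of a mark. H3K36me3 was listed at 3 members in control and 5 after AngII when regions had to cover 50% of the interval. Those added were Rgs4 and Rgs10. The cover at Rgs10, 45.5% in control and 51.1% after AngII, belongs to an interval with 57 other loci and cannot be assigned to Rgs10. With only the upper 50% of scores kept it was listed at 2 in control (Rgs2 and Rgs10) and 6 after AngII, where Rgs3, Rgs12, Rgs16 and Rgs19 were added and Rgs4 was lost. The same filter left H3K4me3 at 7 members in control and 6 after AngII, without Rgs4. The shares of all genes under these filters were not computed, so these counts do not set the members apart. The AngII list for H3K36me3 also covered more of the 6448 expressed genes with their own interval, a mean of 90.1% against 86.3%. No paired analysis was possible because each condition holds 1 library per assay. Without replicates no difference has a check against variation between cultures, and levels near 0 FPKM, as of Rgs5, rest on a few fragments.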
